A study of Mus musculus with 6 samples.

Results

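The genes described here are 10 transcription factors that set the identity of sensory neurons: Isl1, Pou4f1, Pou4f2, Pou4f3, Runx1, Runx3, Drgx, Etv1, Esrrg and Shox2. They were chosen by name, and each was matched by its mouse Ensembl identifier to 1 row of a table of 54532 genes, where Drgx is annotated as Prrxl1. The table comes from bulk RNA-seq of dorsal root ganglia, where the cell bodies of spinal sensory neurons lie, taken from C57BL/6 mice at 8 weeks of age. The Hdac2 conditional knockout (Hdac2 cKO, 3 libraries, genotype Adv-Cre+/hdac2-flop++) had floxed alleles of Hdac2, a histone deacetylase, and Cre driven by the promoter of Advillin, a gene of primary sensory neurons. The WT libraries (3, genotype hdac2-flop++) came from littermates with floxed Hdac2 and no Cre. A group with Cre and unfloxed Hdac2 was not analysed here, and whether ganglia of several mice were pooled is not stated. The study asked how loss of HDAC2 in sensory neurons bears on genes linked to chronic pain. Values are read counts divided by a library's size factor, called normalised read counts, and each log2 fold change is the Hdac2 cKO mean minus the WT mean of log2 (value + 1).

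Sensory neurons take on their identity in steps. Isl1, a LIM homeodomain factor, and Pou4f1 (also called Brn3a), a POU homeodomain factor, are made in nearly all of them, end the programme of the dividing precursor and turn on the factors that divide the neurons into kinds. Among those, Runx1 sets up non-peptidergic nociceptors and itch neurons, Runx3 sets up proprioceptors, which report muscle stretch, and Shox2 acts in touch neurons that carry the receptor TrkB. Many of these genes stay on in the adult.

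Hdac2 itself separated the groups as the labels state, at 499.1, 371.5 and 535.0 normalised read counts in Hdac2 cKO 1, 2 and 3, against 2816, 1715 and 3498 in WT 1, 2 and 3 (log2 fold change -2.47, SE 0.31, limma adjusted p = 0.927 over all genes). Reads assigned to genes ranged from 18943595 to 42070531 per library, and the 10 factors had between 301 and 9265 reads each in a library. The libraries differed in ways that do not follow the groups alone. Summed Ddx3y, Uty, Kdm5d and Eif2s3y, which lie on the Y chromosome, stood at 3993, 3649.5 and 5698 in Hdac2 cKO 2, WT 2 and WT 3 and at no more than 7.06 in the others. The sum of 7 erythroid genes was 51225, 77527 and 53291 in Hdac2 cKO 1, Hdac2 cKO 2 and WT 1 and between 1340.1 and 7113 in the others. WT 3 stood furthest from its group, with a chi-square per gene of 311 against WT 1 and 219 against WT 2, where WT 1 and WT 2 gave 74.9. Hdac2 cKO 3 also stood apart, at 125 against Hdac2 cKO 1 and 128 against Hdac2 cKO 2, where Hdac2 cKO 1 and 2 gave 17.5. Skeletal muscle genes, with 18 of 19 tested, were lower in Hdac2 cKO for all 18, and their sum ranged from 319 to 1680 in Hdac2 cKO and from 3419 to 13401 in WT. Myelinating Schwann cell genes were lower for 11 of 13. The part of these differences in the values below was not tested, except where a value without a library is given. In whole ganglia, fewer cells of a kind and less RNA per cell cannot be told apart.

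Of the 10 factors 0 were called by limma at an adjusted p of 0.05, as were 0 of all 18410 genes tested (0%). The lowest limma adjusted p of any gene was 0.927, so Hdac2, the deleted gene, was not called either. A count of 0 called therefore cannot show that a factor was unchanged. At an unadjusted p under 0.05 there was 1 of 10, Runx3, against 341 of all genes (1.85%). The groups did not overlap for 2 of 10, against 8.54% of all genes. One of these, Isl1, was higher in Hdac2 cKO, as for 4.63% of all genes, and the other, Runx3, was lower, as for 3.91%. In total 6 of 10 were higher and 4 lower. Their median log2 fold change was 0.05, beside 0.06 over all genes tested. The standard errors, from 0.21 to 0.36, were all below the median of 0.38 over all genes. That median also covers genes at much lower levels than the 10 factors, and genes of like level were not compared. The 95% confidence intervals, not adjusted for the number of genes, left out a 2-fold change in either direction for 8 of 10, that is for all but Runx1 and Runx3. With the replicate number as a block, limma again called 0 of the 10 (0% of all genes). Without both libraries numbered 3 it called 0 of the 10, beside 0.0287% of 17410 genes. DESeq2 on 5 libraries, without Hdac2 cKO 1, also called 0 of the 10, beside 0.2% of 36556 genes.

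The sequence before the start of Isl1 and Runx3 is shown because these were the factors whose groups did not overlap, and that of Runx1 because it is the paralog of Runx3. RefSeq promoter windows (GRCm38.p6) were found for 9 of the 10 factors, 15 windows in all, and Pou4f3 was not matched. The 250 bases before each start were read 5′ to 3′ on the gene's strand and searched on both strands for TGTGGT (the RUNX core, ACCACA on the other strand), TAATTA (a homeodomain core) and GGAA (the ETS core). Capitals mark TGTGGT or ACCACA. The Isl1 window is chr13:116309690-116309938 (minus strand), that of the distal Runx3 start chr4:135120395-135120644 (plus strand), and that of the distal Runx1 start chr16:92826150-92826324 (minus strand), where the Isl1 and Runx1 windows leave out bases inside the annotated gene. The Runx3 window overlaps an exon of Gm16225.
Isl1: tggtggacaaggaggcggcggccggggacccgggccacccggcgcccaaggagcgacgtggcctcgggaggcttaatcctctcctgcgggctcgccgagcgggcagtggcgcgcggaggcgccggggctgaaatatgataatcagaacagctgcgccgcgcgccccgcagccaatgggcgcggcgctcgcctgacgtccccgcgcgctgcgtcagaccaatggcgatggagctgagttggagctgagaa
Runx3: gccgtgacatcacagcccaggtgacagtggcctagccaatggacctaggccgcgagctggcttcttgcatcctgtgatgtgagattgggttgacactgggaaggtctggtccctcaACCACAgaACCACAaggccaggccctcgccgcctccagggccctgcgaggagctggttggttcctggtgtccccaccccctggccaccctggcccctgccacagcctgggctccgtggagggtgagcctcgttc
Runx1: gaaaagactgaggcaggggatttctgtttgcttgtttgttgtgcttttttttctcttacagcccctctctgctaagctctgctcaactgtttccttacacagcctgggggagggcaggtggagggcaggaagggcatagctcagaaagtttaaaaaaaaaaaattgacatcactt
The distal Runx3 window held 2 RUNX cores, printed as ACCACA on this strand, and the Isl1 and Runx1 windows held 0. Over the 15 windows 3 held TGTGGT (a window each of Runx3, Drgx and Etv1), beside 14% of all 32851 windows in the table. The other window of Runx3 and that of Etv1 held 0, and the Drgx window overlaps an exon of Drgx. TAATTA was in 0 of the 15, beside 4.84% of all, and GGAA in 12, beside 93.4%. A match of letters is a description and not a bound site.

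Isl1 (ENSMUSG00000042258, mm10 chromosome 13, 116298281 to 116309689, minus strand) is the pan-sensory LIM homeodomain factor. It reached 2697, 2577 and 4109 normalised read counts in Hdac2 cKO 1, 2 and 3, against 2336, 2437 and 2326 in WT 1, 2 and 3. Each knockout library was above each WT library, and Hdac2 cKO 3, the most deeply sequenced library, was far above the other two. The means were 3128 ± 852 in Hdac2 cKO and 2367 ± 61.5 in WT (SD, n = 3 each), so nearly all of the spread lay in the knockout. The log2 fold change was 0.37 (SE 0.23, 95% confidence interval -0.18 to 0.91, limma adjusted p = 0.927). An exact permutation test, two-sided and over 20 assignments of the libraries, returned p = 0.1, the smallest that 3 against 3 allows. Without Hdac2 cKO 3 the log2 fold change was 0.16. Isl1 is also made by spinal motor neurons. The sum of their 6 marker genes was 136, 73.7 and 91.6 in Hdac2 cKO 1, 2 and 3, against 95.3, 31.3 and 457 in WT 1, 2 and 3. Chat, the acetylcholine-synthesising enzyme, was at 85.9 in WT 3 and at most 1.97 elsewhere, and Slc18a3 and Lhx3 were likewise highest there. Slc5a7 was at 125 in WT 3 but also at 112 in Hdac2 cKO 1, and Mnx1 and Uts2 were at 0 in WT 3. The part of motor neurons in the Isl1 level was not tested.

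Pou4f1 (ENSMUSG00000048349, mm10 chromosome 14, 104461676 to 104467999, minus strand), the partner of Isl1 in nearly all sensory neurons, had 5669, 5001 and 5675 normalised read counts in Hdac2 cKO 1, 2 and 3, against 4858, 6833 and 6602 in WT 1, 2 and 3. The knockout libraries lay inside the WT range. The means were 5448 ± 388 in Hdac2 cKO and 6098 ± 1079.5 in WT (SD, n = 3 each), and the change on the log2 scale was -0.15 (SE 0.21, 95% confidence interval -0.64 to 0.34, limma adjusted p = 0.927). With 1 library left out it ran from -0.30 without WT 1 to -0.058 without WT 2. Within a library, where no scaling between libraries is needed, Isl1 over Pou4f1 was 0.476, 0.515 and 0.724 in Hdac2 cKO 1, 2 and 3, against 0.481, 0.357 and 0.352 in WT 1, 2 and 3. WT 1 lay among the knockout libraries.

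The other POU4 genes are paralogs of Pou4f1. Pou4f2 (ENSMUSG00000031688, mm10 chromosome 8, 78433010 to 78436645, minus strand), also known from retinal ganglion cells, had 493, 523 and 531 normalised read counts in Hdac2 cKO 1, 2 and 3, against 390.0, 589.6 and 369 in WT 1, 2 and 3. The knockout values were close together, with a coefficient of variation of 3.86%, and fell between the WT values, for which it was 27.1%. Its log2 fold change was 0.23 (SE 0.26, 95% confidence interval -0.38 to 0.83, limma adjusted p = 0.927), and it ran from 0.10 without WT 3 to 0.44 without WT 2. Pou4f3 (ENSMUSG00000024497, mm10 chromosome 18, 42394539 to 42397249, plus strand), known above all from the hair cells of the inner ear, had 581, 589.7 and 864 normalised read counts in Hdac2 cKO 1, 2 and 3, against 770.3, 826 and 834 in WT 1, 2 and 3. Hdac2 cKO 1 and 2 were below all WT libraries and Hdac2 cKO 3 above them. On the log2 scale the difference was -0.28 (SE 0.23, 95% confidence interval -0.83 to 0.27, limma adjusted p = 0.927), and it ran from -0.47 without Hdac2 cKO 3 to -0.18 without Hdac2 cKO 1.

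Drgx (ENSMUSG00000041730, mm10 chromosome 14, 32599407 to 32649246, plus strand) is a paired homeodomain factor that nociceptors need to innervate the dorsal horn. It reached 3694, 3640.5 and 6480.0 normalised read counts in Hdac2 cKO 1, 2 and 3, against 2970.0, 3785 and 4164 in WT 1, 2 and 3. As with Isl1, Pou4f3, Etv1 and Shox2, the highest library was Hdac2 cKO 3. For Drgx the other knockout libraries lay inside the WT range. Its log2 fold change of 0.30 (SE 0.28, 95% confidence interval -0.37 to 0.96, limma adjusted p = 0.927) was 0.03 without Hdac2 cKO 3 and 0.16 without WT 1. Drgx over Isl1 within a library was 1.37, 1.41 and 1.58 in Hdac2 cKO 1, 2 and 3, against 1.27, 1.55 and 1.79 in WT 1, 2 and 3, with overlapping groups.

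**Figure D1:**
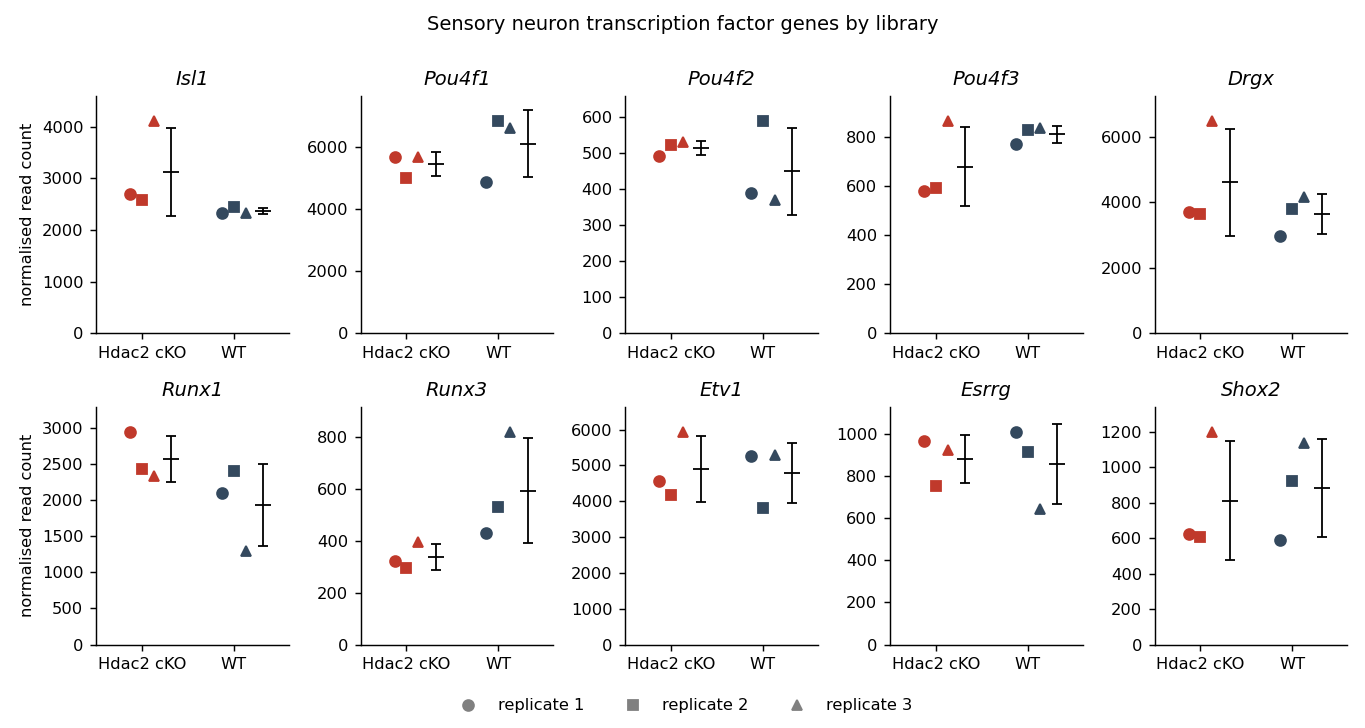
Normalised read counts of the 10 factors in each library (y axis, from 0), with Hdac2 cKO in red at the left and WT in dark blue at the right of each panel. Symbols are replicates and black bars the mean ± SD (n = 3). The groups separate for Isl1 and Runx3 alone, and the red triangle, Hdac2 cKO 3, is the highest library for Isl1, Pou4f3, Drgx, Etv1 and Shox2.

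Runx3 (ENSMUSG00000070691, mm10 chromosome 4, 135120652 to 135177990, plus strand), the runt-domain factor of proprioceptors, keeps the neurotrophin receptor TrkC on and TrkB off in them. It had 320.3, 296 and 394 normalised read counts in Hdac2 cKO 1, 2 and 3, against 429, 532 and 818 in WT 1, 2 and 3. Each knockout library was below each WT library, and the gap between Hdac2 cKO 3 and WT 1 was small beside the distance of WT 3 from WT 1. The means were 337 ± 51.4 in Hdac2 cKO and 593 ± 201 in WT (SD, n = 3 each). The log2 fold change was -0.77 (SE 0.30, 95% confidence interval -1.48 to -0.06), a ratio of 0.586. It ranked 248 of 18410 genes by limma's unadjusted p of 0.0373 and did not pass over all genes (adjusted p = 0.927). The two-sided exact permutation p was 0.1, the smallest possible. With limma's array weights, which give WT 2 a weight of 4.17 and WT 3 one of 0.101, Runx3 was called at -0.75 (adjusted p = 0.0395), as were 3.08% of all genes in that setting.

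Within libraries alike in Y-linked or in erythroid reads, Runx3 could be compared only with 1 library on one side, so these are values without a test. Where Y-linked reads were high, the difference in log2 means was -1.15 (1 knockout and 2 WT libraries), and where they were low, -0.27 (2 and 1). Where erythroid genes were high it was -0.48 (2 and 1), and where they were low, -0.74 (1 and 2). Without WT 3 the log2 fold change was -0.51, against -0.98 without WT 1. Lymphocytes also make Runx3. The sum of 19 lymphocyte and granulocyte markers was 14197, 22814 and 401 in Hdac2 cKO 1, 2 and 3, against 24837, 1519 and 631 in WT 1, 2 and 3, and most of it came from 7 granulocyte genes. The 11 lymphocyte genes alone summed to 541, 744 and 121 in Hdac2 cKO 1, 2 and 3, against 713, 159 and 136 in WT 1, 2 and 3. Among them Cd3e, a T cell receptor subunit, was highest in WT 3, also the highest library for Runx3, at 86.9 against at most 19.4 elsewhere. The other T cell markers were not highest there. In WT 3 Cd3d and Cd8a were at 0, Cd3g at 11.2 and Cd4 at 9.2. The part of these cells in the Runx3 level was not tested.

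Runx1 (ENSMUSG00000022952, mm10 chromosome 16, 92601466 to 92826149, minus strand), the runt-domain factor of non-peptidergic nociceptors, had 2944, 2439 and 2339.5 normalised read counts in Hdac2 cKO 1, 2 and 3, against 2097, 2400.2 and 1300.1 in WT 1, 2 and 3. WT 2 lay between Hdac2 cKO 2 and 3, so the groups overlapped, and WT 3 was far below the rest. The means were 2574 ± 324 in Hdac2 cKO and 1933 ± 568 in WT (SD, n = 3 each). The log2 fold change of 0.45 (SE 0.27, 95% confidence interval -0.19 to 1.09, limma adjusted p = 0.927) was the highest of the 10, and it was 0.19 without WT 3. Macrophages also make Runx1. The 14 macrophage markers summed to 10919, 12502 and 3717 in Hdac2 cKO 1, 2 and 3, against 12570, 5567 and 3317 in WT 1, 2 and 3. An annotated antisense gene, Gm26626, shares 106 exon bases with Runx1 and had at most 7.07 normalised read counts.

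Runx1 and Runx3 thus lay on opposite sides of 0, a pair noticed after the values were seen. Runx1 over Runx3 within a library was 9.19, 8.25 and 5.93 in Hdac2 cKO 1, 2 and 3, against 4.89, 4.52 and 1.59 in WT 1, 2 and 3. The groups did not overlap, and the mean log2 ratio differed by 1.23, and by 0.70 without WT 3. It is 1 of 5 such ratios computed, and as the pair was picked by its values it is a description without a test. Runx3 alone also had groups without overlap, and how often ratios of other gene pairs separate was not computed. Another of the 5, Isl1 over Etv1, was 0.590, 0.616 and 0.694 in Hdac2 cKO 1, 2 and 3. In WT 1, 2 and 3 it was 0.445, 0.637 and 0.440, with overlapping groups. Cbfb, the partner that both runt-domain factors share, was at 7659 ± 790 in Hdac2 cKO and 7016 ± 934 in WT (SD, n = 3 each), with overlapping groups.

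Shox2 (ENSMUSG00000027833, mm10 chromosome 3, 66971727 to 66981771, minus strand) is a short-stature homeobox factor of touch neurons that carry TrkB. It reached 625, 607 and 1196 normalised read counts in Hdac2 cKO 1, 2 and 3, against 589, 920.2 and 1136 in WT 1, 2 and 3. The libraries numbered 3 were the highest of each group. On the log2 scale it differed by -0.15 (SE 0.36, limma adjusted p = 0.948), a ratio of 0.904 with a 95% confidence interval from 0.5005 to 1.63. The SE was the largest of the 10, and the sign turned when any 1 of Hdac2 cKO 1, Hdac2 cKO 2 or WT 3 was left out. Shox2 over Runx3 within a library, also chosen after the values were seen, was 1.95, 2.05 and 3.03 in Hdac2 cKO 1, 2 and 3, against 1.37, 1.73 and 1.39 in WT 1, 2 and 3. The groups of this ratio did not overlap, and it shares its Runx3 values with the ratio above. Exons of Shox2 share 153 bases with the antisense gene Rsrc1, which had between 1098 and 2281 normalised read counts. No source used here states whether counting used strand, so reads of the 2 genes there cannot be told apart.

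**Figure D2:**
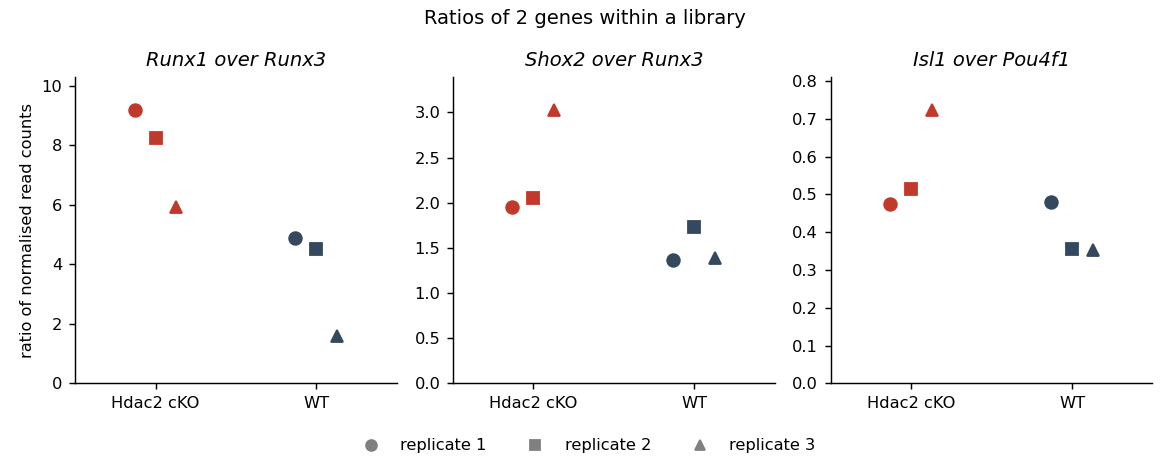
Ratios of 2 factors within the same library (y axis, from 0), for Hdac2 cKO (red, left) and WT (dark blue, right), with symbols for replicates. Runx1 over Runx3 and Shox2 over Runx3 do not overlap between groups, and both are divided by Runx3, whose own groups do not overlap. For Isl1 over Pou4f1 the WT 1 library, at 0.481, lies above Hdac2 cKO 1, at 0.476. Drgx over Isl1 and Isl1 over Etv1, both with overlapping groups, are not shown.

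Etv1 (ENSMUSG00000004151, mm10 chromosome 12, 38779380 to 38870484, plus strand) is an ETS factor that proprioceptors need to connect with motor neurons. It had 4573, 4181 and 5925 normalised read counts in Hdac2 cKO 1, 2 and 3, against 5255, 3824 and 5288 in WT 1, 2 and 3, with overlapping groups. Its log2 fold change was 0.03 (SE 0.23, 95% confidence interval -0.51 to 0.57, limma adjusted p = 0.981). Esrrg (ENSMUSG00000026610, mm10 chromosome 1, 187608791 to 188214885, plus strand), an orphan nuclear receptor that drives genes of oxidative metabolism and marks gamma motor neurons in the spinal cord, had 967, 752 and 924 in Hdac2 cKO 1, 2 and 3, against 1006, 914 and 644 in WT 1, 2 and 3. Its log2 fold change was 0.06 (SE 0.25, 95% confidence interval -0.52 to 0.64, limma adjusted p = 0.966). These intervals allow a ratio between 0.702 and 1.49 for Etv1 and between 0.698 and 1.56 for Esrrg. Skeletal muscle also makes Esrrg. The muscle gene sums were at most 1680 in Hdac2 cKO and at least 3419 in WT, and their part in the Esrrg level was not tested.

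**Figure D3:**
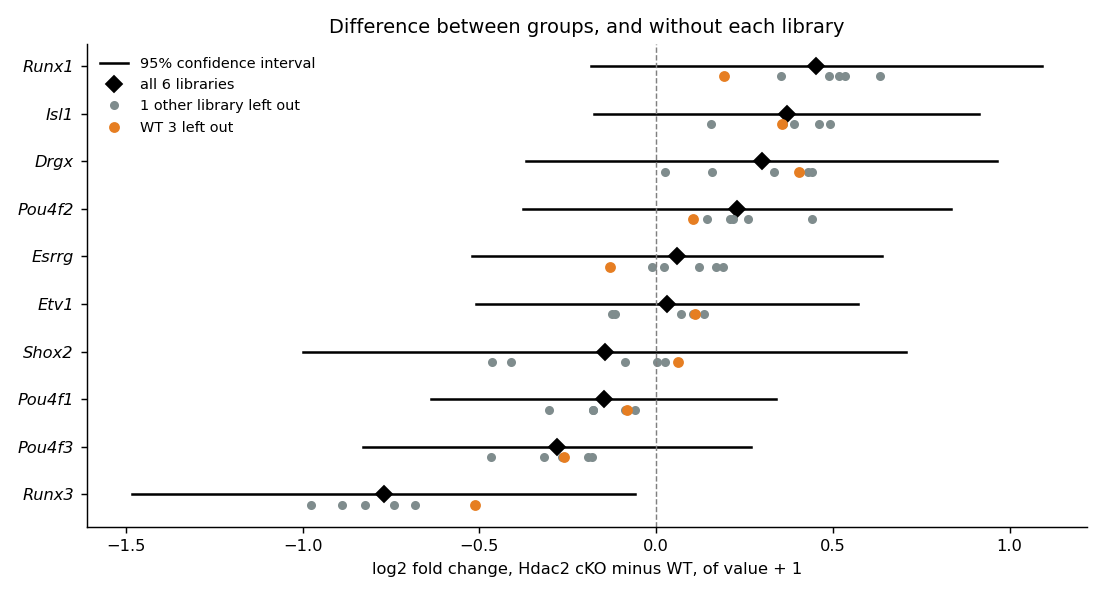
Log2 fold change of each factor, Hdac2 cKO minus WT, as log2 (value + 1) (x axis), with the 95% confidence interval from limma (line) and the value without each library (dots, orange for WT 3). The interval of Runx3, from -1.48 to -0.06, is the only one that leaves out 0, before any adjustment for the number of genes, and the dots of Shox2, Etv1 and Esrrg lie on both sides of 0.

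Levels were compared between genes per kb of exon, with all annotated exons of a gene merged, so that genes with long or many isoforms, such as Etv1 (13.3 kb) and Runx1 (12.0 kb), are set low on this scale. Over the 6 libraries Pou4f1 was the highest at 1236 ± 173 normalised read counts per kb, then Drgx at 988 ± 292 and Isl1 at 694 ± 172 (SD, n = 6). Etv1 followed at 364 ± 59.1, Pou4f3 at 310.2 ± 52.8, Shox2 at 255 ± 83.7 and Runx1 at 187 ± 45.2. Pou4f2, at 151 ± 26.8, Esrrg, at 140 ± 22.5, and Runx3, at 92.9 ± 38.4, were the lowest. Among all tested genes these levels ran from the 93.5th percentile for Pou4f1 to the 48.0th for Runx3. Among neighbours in this order, the step between Isl1 and Etv1 alone exceeded the sum of the SDs, and only there did the ranges over libraries not overlap. Compared within each library, Drgx was above Isl1 in 6 of 6 libraries, and Pou4f1 above Drgx in 5 of 6. Among the other 7 genes each was above the next in 4 or 5 of 6 libraries.

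**Figure D4:**
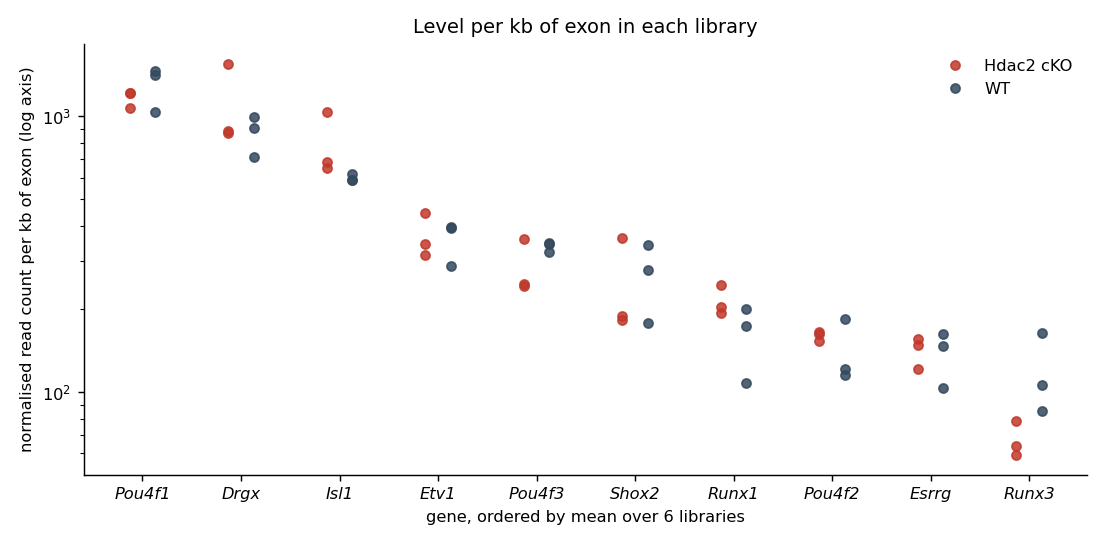
Normalised read count per kb of exon (y axis, log scale) for the 10 factors, ordered by their mean over 6 libraries (x axis), with 1 dot per library, Hdac2 cKO (red) left of WT (dark blue). Pou4f1, Drgx and Isl1 form an upper group, with means from 694 to 1236, above the other 7, with means of at most 364.

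Relative to the mean log2 level of 17 pan-neuronal genes in the same library, Isl1 was 0.32 higher in Hdac2 cKO, Pou4f3 0.33 lower and Runx3 0.82 lower. On this scale, chosen after the data were seen, the groups of these 3 factors did not overlap, beside 8.34% of all genes on the same scale (2% higher and 6.34% lower in Hdac2 cKO). Without Hdac2 cKO 3 the value of Isl1 was 0.19. The 17 genes include Avil, the gene whose promoter drives Cre, with a log2 fold change of -0.68 (SE 0.21). The scale was not computed without it. The genes most like a factor across the 6 libraries were found by Pearson's r of log2 (value + 1), given as a description of 6 points that share their size factors, taken as the highest of 18410 genes. They were Srpk2 and Rbfox1 for Isl1 (r = 0.995 and 0.994), Cad and Nat8f1 for Runx3 (0.998 and 0.997), Fam120a and A930003O13Rik for Runx1 (0.996 and 0.992), and Acin1 and Pcolce2 for Shox2 (0.999 and 0.997). For Pou4f1 they were P3h3 and Zfp423 (0.992 and 0.987), for Drgx Umad1 and Plekha5 (0.988 and 0.987), and for Etv1 Olig3 and Cldn12 (0.982 and 0.966). For Pou4f2 they were Acaa1b and Gm10602 (0.994 and 0.992), and for Pou4f3 Gm32031 and Rps19-ps6 (0.990 and 0.981). Those of Esrrg are not given. No other factor of the 10 was among those named.

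Around the 10 factors stand the regulators they work with and the genes of the neurons they specify, given as 7 lists with 124 genes, of which 120 were tested and 0 were called by limma (adjusted p from 0.927 to 1.00). Of other regulators of the sensory and nociceptor lineage 31 of 34 were tested, 15 higher and 16 lower, and their median log2 fold change was -0.002, beside 0.06 over all genes, and ran from -0.15 without Hdac2 cKO 3 to 0.047 without WT 2. Klf7, a zinc finger factor of the Krüppel-like family, was highest, at 6112, 5188 and 6297 normalised read counts in Hdac2 cKO 1, 2 and 3, against 4793, 3370 and 2711 in WT 1, 2 and 3, without overlap (log2 fold change 0.73, SE 0.25). Hmx1, a homeobox factor, was lowest (-0.78, SE 0.86), a value set by 1335 in WT 3 beside 110.3 to 225 in the other libraries. Tlx3, a homeobox factor of early nociceptors, was at -0.72 on the log2 scale (SE 0.49) and likewise stood highest in WT 3, at 9519. Prdm12, needed for nociceptors to form, had one of 0.15 (SE 0.22). Isl2, the paralog of Isl1, named after its values were seen, had 5600, 5131 and 5128 in Hdac2 cKO 1, 2 and 3, against 5637, 7579 and 6130 in WT 1, 2 and 3. Its groups did not overlap and lay the opposite way to those of Isl1 (log2 fold change -0.28, SE 0.19).

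Of regulators of mechanoreceptors 14 of 15 were tested, 2 higher and 12 lower, and their median log2 fold change was -0.12. Without WT 3 it was -0.019, with 5 higher and 9 lower, and without Hdac2 cKO 1 it was 0.035. Mef2c was highest at 0.71 (SE 0.42), and Esrra, a relative of Esrrg, lowest at -0.72 (SE 0.45), with 5156 normalised read counts in WT 3 beside at most 2329 elsewhere. Maf, a leucine zipper factor of touch neurons, had -0.18 (SE 0.37).

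Genes known to need Runx1 in sensory neurons were tested for 25 of 25, with 20 higher and 5 lower and a median log2 fold change of 0.51, the highest of these lists. Without WT 3 the median was 0.09, with 15 higher and 10 lower. WT 3 was the lowest library for Runx1, but it also stood apart for genes outside this list. It was lowest for Map2 (2637 against at least 4702 elsewhere) and highest for Tlx3 (9519 against at most 3916). The part of Runx1 in the values of this list was not tested. Ret, the signalling receptor of GDNF family ligands, had 22056, 19517 and 21488 normalised read counts in Hdac2 cKO 1, 2 and 3, against 16717, 18154 and 8298 in WT 1, 2 and 3 (log2 fold change 0.63, SE 0.32). Mrgprd, a receptor that marks non-peptidergic nociceptors, was at 6488 ± 431 in Hdac2 cKO and 5331 ± 441 in WT (SD, n = 3 each), also without overlap (0.28, SE 0.18). P2rx3, an ATP-gated channel, was at 513 in WT 3 and between 3649 and 4767 elsewhere. Trpm8, the cold-sensing channel, ranged from 168 to 1037 in Hdac2 cKO and from 168 to 1049 in WT. Lpar5 was the highest of the list, at a log2 fold change of 2.59 (SE 2.01), because it had 0 in WT 3 and between 182 and 301 elsewhere, and Mrgprb4, at 159 or less, was the lowest (-1.17, SE 2.07).

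Genes of proprioceptors, the neurons of Runx3 and Etv1, were tested for 13 of 13, with 4 higher and 9 lower and a median of -0.02 on the log2 scale, which was -0.21 without WT 3 and 0.13 without WT 2. Pvalb, the calcium buffer parvalbumin, had 3256, 2960 and 6217 normalised read counts in Hdac2 cKO 1, 2 and 3, against 4579, 5320.1 and 24563 in WT 1, 2 and 3 (log2 fold change -1.11, SE 0.65), with WT 3 highest, as for Runx3. Ntrk3, which encodes TrkC and depends on Runx3 in proprioceptors, lay the other way, at 7958, 6862 and 6709 in Hdac2 cKO 1, 2 and 3, against 6663, 4836 and 4148 in WT 1, 2 and 3 (0.48, SE 0.23), without overlap. The part of other cells, such as skeletal muscle, in the Pvalb level was not tested. Chodl was the highest of the list, at 149 ± 32.1 in Hdac2 cKO and 61.5 ± 14.5 in WT (SD, n = 3 each; log2 fold change 1.27, SE 0.38). Among 14 genes of touch neurons 8 were higher and 6 lower, with a median of 0.12 that ran from 0.051 without Hdac2 cKO 3 to 0.23 without Hdac2 cKO 2. Of these Ntrk2, which encodes TrkB and marks the neurons of Shox2, had -0.11 (SE 0.22), Npy2r 0.94 (SE 0.27), without overlap, and Mafa -0.71 (SE 0.60).

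Peptidergic nociceptor genes had 8 of 12 higher and a median log2 fold change of 0.16, which was 0.33 without WT 3 and 0.065 without Hdac2 cKO 1. Calca, which encodes the peptide CGRP, had -0.03 (SE 0.25), and Trpv1, the heat and capsaicin channel, 0.59 (SE 0.27). Galr1 was highest at 1.32 (SE 0.70) and Smr2 lowest at -0.65 (SE 0.37). Pan-neuronal genes had 9 of 17 higher and a median of 0.10, which turned to -0.043 without WT 1, -0.035 without both libraries numbered 3 and -0.077 with array weights. Within them Map2, a dendrite and cell body protein, was highest at 0.53 (SE 0.28), and Avil, the gene whose promoter drives Cre, lowest at -0.68 (SE 0.21).

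**Figure D5:**
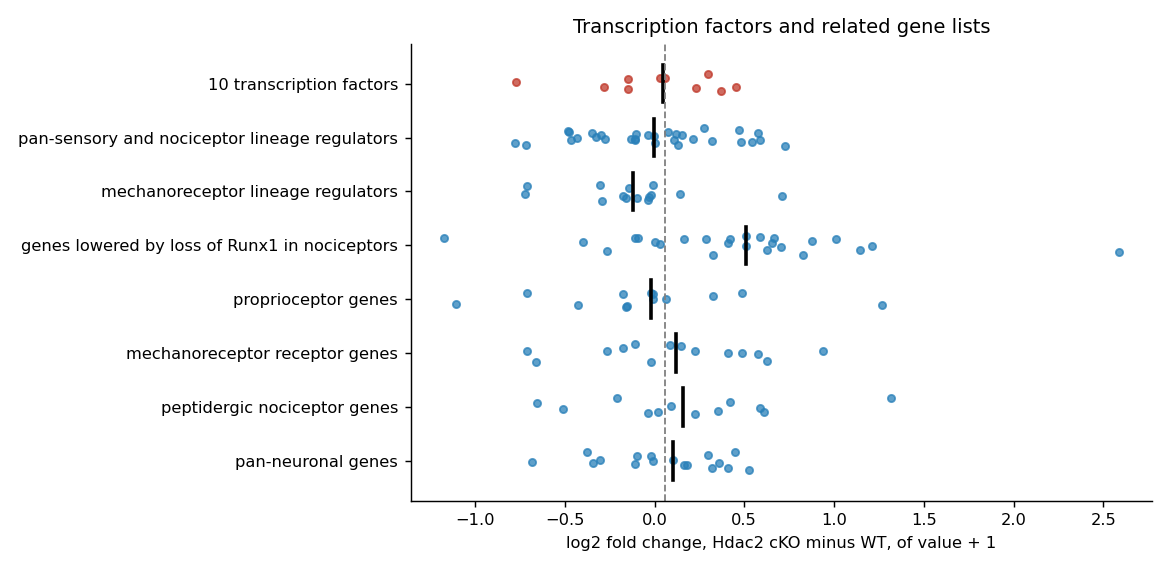
Log2 fold change, Hdac2 cKO minus WT, as log2 (value + 1) (x axis), of each tested gene of the 10 factors (red) and of 7 related lists (blue). Black bars are list medians and the dashed line the median of all 18410 genes tested, 0.06. The 10 factors centre on 0.05, and the list of genes that need Runx1 has the highest median, 0.51, which is 0.09 without WT 3.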

How the data were processed

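The authors used HISAT2, SAMtools, featureCounts and DESeq2 and the mm10 build, per the submitters' processing notes. Their versions, annotation and strand setting were not stated. The deposited signal values were gene read counts divided by 1 size factor per library: 100% of values were whole multiples, within a tolerance of 0.01, of the smallest value above 0 in their column. Of genes with 1 to 20 recovered reads in a library, 42.4% had an even number in WT 2 and 60.2 to 64.4% in the others. The part of this difference in the read totals and in the results was not tested. GENCODE release M21 (GRCm38) matched 54495 identifiers.

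Groups and replicate numbers came from titles. Nothing says whether each library was a separate mouse, so a p-value covers only the spread from library to library, which may be technical. The main test was limma 3.58.1 (R 4.3.3) on log2 (value + 1), moderated with its trend and robust options, for the 18410 genes with 10 or more in 3 libraries, two-sided, Benjamini-Hochberg adjusted over all of them, threshold 0.05. Alternatives were pseudocounts of 0.5 and 5, 2 filters, TMM scaling, a replicate block, array weights, gene length correction, leaving out libraries, and edgeR 4.0.16 and DESeq2 1.42.0 on recovered reads. The scripts were tested on simulated counts with the same replicate spread for all genes and no library set apart. That setting differs from these libraries, so it does not show what the tests could call here.

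Members, gene lists and tests were chosen with earlier results of these data known. Genes were named by a rule: the 10 factors, Hdac2, Avil, the highest and lowest tested gene of each related list, and a few preset genes. Some genes that the rule names are not reported here. Cbfb and Isl2 lie outside it and were named after their values were seen. Deviations from group means correlated across genes by 0.40, 0.15 and 0.42 between libraries numbered 1, 2 and 3, so a number was taken to pair its libraries, a hint from the data that no label states. Hdac2 cKO 2 correlated more with WT 1 (0.34) than with WT 2.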

Additional observations from a re-analysis of the deposited data

How the results depend on the processing

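With 3 libraries a group, exact tests cannot go below p = 0.1. Each factor had 301 reads or more in each library, and the effect of depth was not tested. Over 18 alternatives Isl1, Runx1 and Drgx stayed higher and Pou4f1, Pou4f3 and Runx3 lower in Hdac2 cKO, and the other 4 turned sign in at least 1. The alternatives leave out the comparisons within libraries alike in Y-linked or in erythroid reads, which had 1 library on one side. There Drgx was at -0.12 where Y-linked reads were high. Pou4f1 was at 0.22 where they were low and at 0.13 where erythroid genes were high. Pou4f3 was at 0.057 where erythroid genes were low. Elsewhere among these comparisons all of these factors, with Isl1, Runx1 and Runx3, kept their sign. In Hdac2 cKO 1 the smallest value above 0 was 1.01, and an automatic check refused its recovered reads, although its values too were whole multiples. The planned count tests on all 6 libraries were therefore not run, as that check accepted recovered reads for 5 columns only. On those 5, without Hdac2 cKO 1, alternatives chosen after seeing the data, edgeR called 0 genes and DESeq2 73, with 0 of the 10 factors by either. Array weights gave 567 genes and 1 factor (Runx3), and leaving out both libraries numbered 3 gave 5 genes and 0 factors. The replicate block, which pairs the libraries, called 0 genes and 0 factors and changed no other call, with Runx3 at -0.77 (limma adjusted p = 0.674, against 0.0395 to 1.00 over all alternatives). Signs turned with array weights for Pou4f2 (-0.11) and Esrrg (-0.14), with gene length correction for Etv1 (-0.15) and Esrrg (-0.031), without both libraries numbered 3 for Etv1 (-0.036) and Esrrg (-0.17), and relative to pan-neuronal genes for Etv1 (-0.020). Leaving out 1 library gave log2 fold changes from -0.12 to 0.14 for Etv1, from -0.13 to 0.19 for Esrrg and from -0.46 to 0.063 for Shox2. Within the 5 libraries edgeR gave -0.039 for Esrrg and 0.015 for Shox2, and DESeq2 -0.031 for Esrrg and 0.033 for Shox2. The cause was not tested.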
